A study of Mus musculus with 13 samples.

Results

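Kupffer cells are the resident macrophages of the liver sinusoid, and 10 genes that mark them were followed here in whole-liver mRNA counts. The genes were Clec4f, Timd4, Vsig4, Cd5l, Marco, Folr2, Adgre1, Cd163, Slc40a1 and Csf1r. They were chosen by symbol, all 10 were found among the 22048 genes of the table, and all 10 passed the filter on low counts that left 13831 genes to test. The libraries came from 6 control livers, 4 livers depleted of hepatic stellate cells and 3 livers taken 72 h after partial hepatectomy. Stellate cells are pericytes of the sinusoid that store vitamin A. Partial hepatectomy removes some of the lobes and the remaining tissue grows back.

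Controls were mice whose stellate cells had not been depleted, 3 of each sex. The depleted group held 3 females and 1 male, and the hepatectomised group, also not depleted, held 1 female and 2 males. Strain, age, genotype, the agent that removed the stellate cells and the time after its use are not given in the sources used here, nor is any batch or date, or whether controls had a sham operation. The labels do not say that each library came from a separate mouse, so p-values measure the spread between these samples.

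Kupffer cells clear bacteria, complement-coated particles, dying cells and haemoglobin from portal blood, and they return iron to the circulation. Their survival depends on signalling through the receptor encoded by Csf1r. Their identity is held by transcription factors such as LXRα, SpiC and ID3, and by signals from neighbouring stellate and endothelial cells and hepatocytes, among them Notch ligands, TGF-β and the bone morphogenetic proteins BMP9 and BMP10. Clec4f is largely restricted to these cells in the mouse, and macrophages that enter the liver from blood monocytes acquire Clec4f and Timd4 with a delay.

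Library totals ran from 35360991 to 51008737 counts, and values below are CPM, counts scaled to a library of 1000000 counts with trimmed-mean (TMM) factors. The depletion label was checked on 12 stellate genes, all 12 of which were lower in the depleted livers, at a summed level of 15.6, 15.6, 19.2 and 74.9 CPM against 329 to 854 CPM in controls. Depleted replicate 4 thus kept the most stellate RNA. Control replicate 6 and hepatectomised replicate 2 stood apart in the other direction, with the lowest summed level of 10 general macrophage genes in their groups (42.5 and 74.8 CPM) and of 10 sinusoidal endothelial genes (124 and 127 CPM). In the other controls these sums were 181 to 255 CPM and 400 to 599 CPM. For several results that rest on these 3 libraries, values with and without them are given.

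Upstream sequence from RefSeq (GRCm38.p6) was matched for 7 of the 10 genes, in 8 windows of 250 bases. Those of 3 genes are shown because these genes lay apart from one another in depleted livers, Marco above controls and Clec4f and Vsig4 in or below the control range. Sequences run 5′ to 3′ on the gene's strand, all 3 the minus strand, and capitals mark GAGGAA, the core bound by the macrophage factor PU.1. The Marco window is chr1:120505025-120505274, the Vsig4 window is chrX:96293439-96293688, and the Clec4f window is chr6:83656188-83656366, the 179 bases that lie before the first exon as GENCODE annotates it.
Marco: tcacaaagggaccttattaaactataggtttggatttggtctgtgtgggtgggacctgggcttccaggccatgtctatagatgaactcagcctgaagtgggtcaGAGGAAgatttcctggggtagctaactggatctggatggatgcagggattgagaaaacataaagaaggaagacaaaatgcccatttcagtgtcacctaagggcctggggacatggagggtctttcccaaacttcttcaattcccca
Vsig4: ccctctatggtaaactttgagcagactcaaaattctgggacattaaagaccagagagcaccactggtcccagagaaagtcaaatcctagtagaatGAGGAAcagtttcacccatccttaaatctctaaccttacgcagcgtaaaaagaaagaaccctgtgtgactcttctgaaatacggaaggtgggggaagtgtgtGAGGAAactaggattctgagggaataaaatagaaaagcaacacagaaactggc
Clec4f: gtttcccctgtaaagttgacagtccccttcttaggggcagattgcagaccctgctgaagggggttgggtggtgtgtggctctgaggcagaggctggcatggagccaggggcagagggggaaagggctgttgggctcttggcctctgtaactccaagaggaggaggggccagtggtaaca
Searched on both strands, GAGGAA was present in 3 of the 8 windows, those of Marco (first base at -146), Vsig4 (-155 and -53) and Cd5l (-66, on the other strand). It was present in 23.3% of the 32851 RefSeq windows of the same length. TGGGAA, the core bound by the Notch effector RBPJ, was present in 2 of the 8 windows, those of Marco and Clec4f, and in 21.6% of all. In the Clec4f window it lay in the bases not printed, inside the annotated first exon. The LXR element, AGGTCA repeated after a gap of 4 bases, was in 0 of the 8 and in 0.0152% of all. These matches describe letters, and no binding was measured.

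The first comparison asked how the Kupffer cell genes stood when stellate cells were depleted. They did not move as one group. Marco, Csf1r, Cd163, Adgre1, Timd4 and Slc40a1 rose, and Cd5l lay above every control without passing the test. Folr2 stayed within the control range. Vsig4 in all 4 depleted livers was below 5 of the 6 controls and above control replicate 6, without passing the test. Clec4f was 0.236 to 3.44 CPM in 3 of the 4 depleted livers against 106 to 165 CPM in 5 of the 6 controls. By edgeR's quasi-likelihood test, with p-values adjusted over all genes tested, 6 of the 10 were higher and 0 lower. Over all genes, 18.9% were called higher, 15% lower and 33.9% in either direction. The CPM ranges of the groups did not overlap for 7 of the 10, against 28.4% of all genes. The median log2 fold change was 1.81 over the 10 genes and -0.03 over all genes. In bulk tissue, fewer cells of a type and less RNA per cell cannot be told apart.

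**Figure D1:**
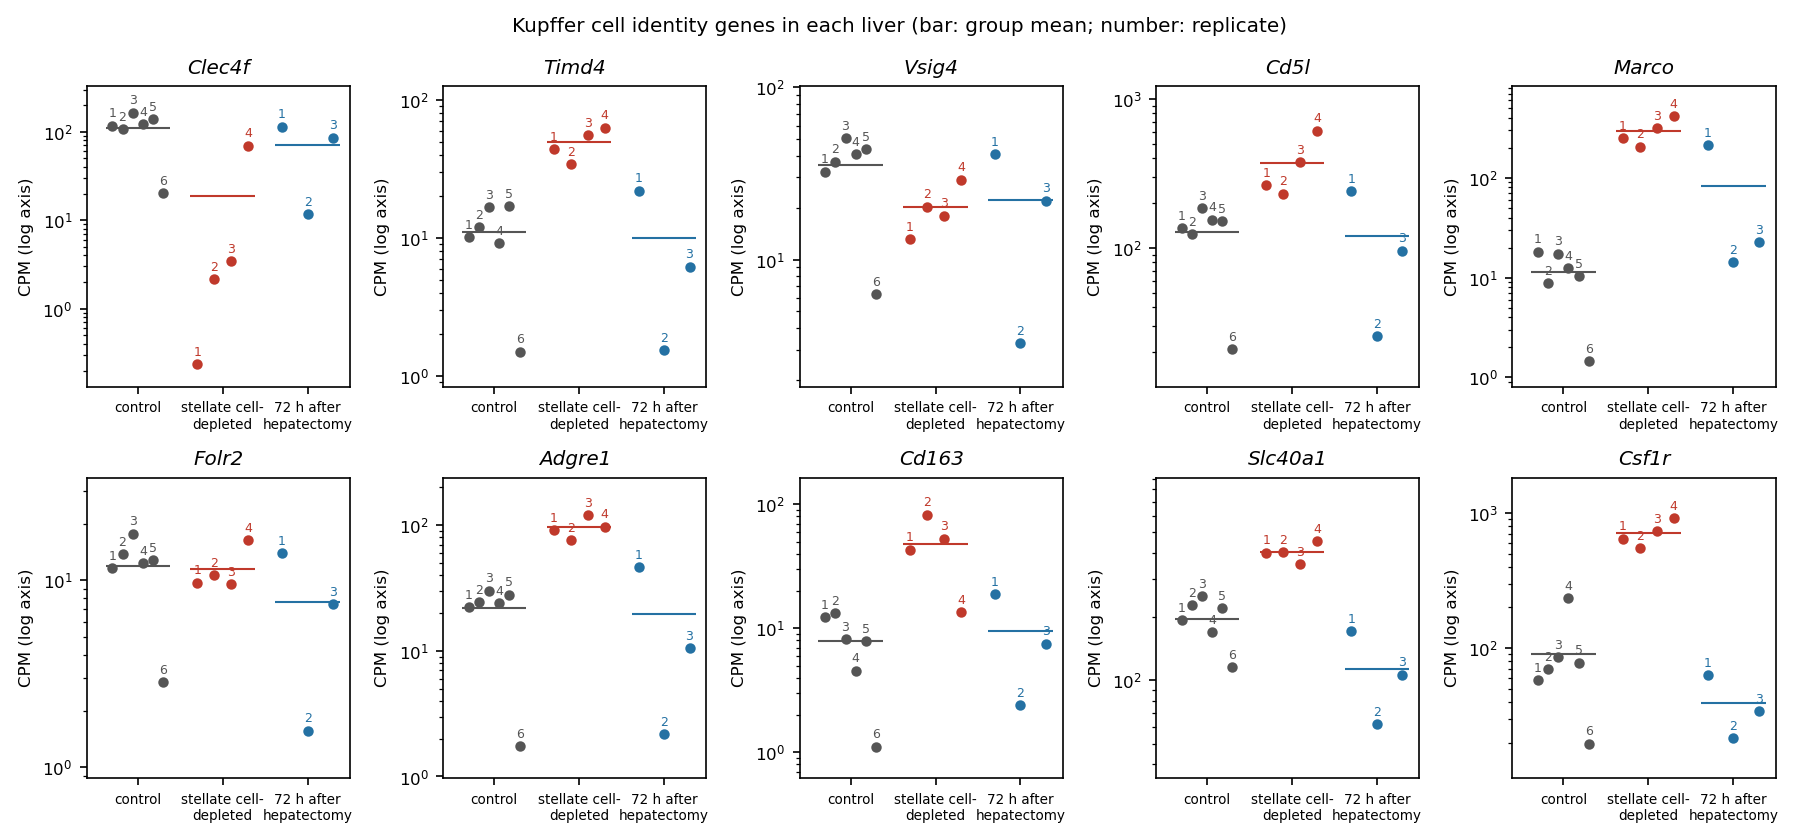
Level of each of the 10 genes in every liver, in CPM on a log axis that differs between panels; points are livers with their replicate number and bars are group means. All 4 depleted livers lie above all 6 controls for Marco, Csf1r, Cd163, Adgre1, Timd4, Slc40a1 and Cd5l, whereas 3 of the 4 lie below all controls for Clec4f.

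Csf1r (ENSMUSG00000024621, chromosome 18) encodes the receptor for the growth factors CSF1 and IL-34. Control livers had 19.7 CPM at the lowest, a median of 74.0 CPM and 233 CPM at the highest. Depleted replicates 1 to 4 had 644, 550, 729 and 912 CPM. The groups did not overlap, and control replicate 4 lay well above the other controls. The log2 fold change was 2.95 ± 0.49 (SE, edgeR adjusted p = 0.000668), a 7.75-fold rise, and with each library left out in turn it lay between 2.62 and 3.45.

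Adgre1 (ENSMUSG00000004730, chromosome 17, 57358691 to 57483527, GRCm38) encodes F4/80, the surface antigen used to recognise mouse tissue macrophages. Controls ran from 1.74 through a median of 24.3 to 30.1 CPM, and depleted replicates 1 to 4 had 91.0, 75.9, 120 and 97.1 CPM. All 4 depleted livers were above all controls. The log2 fold change was 2.14 ± 0.72 (SE, edgeR adjusted p = 0.0368). The call was lost in 9 of the 13 fits that left out 1 library (controls 1 to 5 and each depleted liver), where the adjusted p reached 0.158. Without control replicate 6 and hepatectomised replicate 2 the value was 1.91 (edgeR adjusted p = 0.000838).

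The next genes encode receptors and secreted proteins that bind particles, blood proteins and dying cells. Marco (ENSMUSG00000026390, chromosome 1, 120474538 to 120505024) encodes a scavenger receptor for bacteria and other charged particles. Control livers had 1.44 to 18.2 CPM with a median of 11.4 CPM, and depleted replicates 1 to 4 had 248, 206, 316 and 417 CPM. Every depleted liver exceeded the highest control. The log2 fold change was 4.73 ± 0.79 (SE, edgeR adjusted p = 0.000679), and with each library left out it stayed between 4.50 and 4.96.

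Cd163 (ENSMUSG00000008845, chromosome 6, 124304656 to 124330527) encodes the receptor that takes up haemoglobin bound to haptoglobin. Controls had 1.11 to 13.2 CPM with a median of 8.06 CPM, and depleted replicates 1 to 4 had 43.0, 82.3, 52.7 and 13.5 CPM. The groups did not overlap, but replicate 4, the highest depleted liver for 8 of the 10 genes, was the lowest for this one and close to the highest control. Cd163 rose by 2.70 ± 0.68 (log2, SE, edgeR adjusted p = 0.00892).

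Timd4 (ENSMUSG00000055546, chromosome 11, 46810800 to 46844332) encodes TIM-4, a receptor for phosphatidylserine on dying cells and a mark of long-resident Kupffer cells. Controls had 1.50 to 17.1 CPM with a median of 11.04 CPM, and depleted replicates 1 to 4 had 44.3, 34.4, 55.4 and 63.2 CPM. All 4 depleted livers were above all controls, and Timd4 rose by 2.13 ± 0.64 (log2, SE, edgeR adjusted p = 0.0218). The call was lost without depleted replicate 3, where the adjusted p was 0.111.

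Cd5l (ENSMUSG00000015854, chromosome 3, 87357881 to 87371073) encodes AIM, a secreted protein that keeps macrophages alive and binds cell debris. Controls had 20.9 to 185 CPM with a median of 144 CPM, and depleted replicates 1 to 4 had 265, 231, 376 and 612 CPM. The groups did not overlap, yet the difference of 1.49 ± 0.59 (log2, SE) did not pass (edgeR adjusted p = 0.0714). Without control replicate 6 and hepatectomised replicate 2 it was 1.31 (edgeR adjusted p = 0.0101).

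Slc40a1 (ENSMUSG00000025993, chromosome 1, 45908068 to 45926523) encodes ferroportin, the exporter by which macrophages return iron to plasma, which hepatocytes also make. Controls had 115 to 250 CPM with a median of 206 CPM, and depleted replicates 1 to 4 had 401, 402, 353 and 455 CPM. The groups did not overlap. The rise was 1.00 ± 0.26 (log2, SE, edgeR adjusted p = 0.00955), the smallest among the 6 called genes.

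The remaining 3 genes did not rise. Vsig4 (ENSMUSG00000044206, chromosome X, 96247203 to 96293438) encodes CRIg, the complement receptor that captures C3-coated bacteria. Controls had 6.27 to 50.9 CPM with a median of 39.0 CPM, and depleted replicates 1 to 4 had 13.1, 20.2, 18.0 and 29.1 CPM. Each depleted liver was below 5 of the 6 controls and above control replicate 6. The log2 fold change was -0.88 ± 0.60 (SE, edgeR adjusted p = 0.287). Without control replicate 6 and hepatectomised replicate 2 it was -1.04 (edgeR adjusted p = 0.0089), and in females alone, 3 against 3, it was -1.12 (edgeR adjusted p = 0.0268). It passed in 0 of the 13 fits that left out 1 library (lowest adjusted p = 0.143 by edgeR), nor did it pass by DESeq2 (adjusted p = 0.217) or limma-voom (adjusted p = 0.245).

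Folr2 (ENSMUSG00000032725, chromosome 7, 101839988 to 101857194) encodes folate receptor β of resident macrophages. Controls had 2.85 to 17.8 CPM with a median of 12.6 CPM, and depleted replicates 1 to 4 had 9.70, 10.6, 9.53 and 16.3 CPM. All 4 were inside the control range, and the difference was -0.12 ± 0.52 (log2, SE, edgeR adjusted p = 0.882).

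Clec4f (ENSMUSG00000014542, chromosome 6, 83644542 to 83656187) encodes a C-type lectin that binds galactose and N-acetylgalactosamine. Control replicates 1 to 6 had 117, 106, 165, 122, 139 and 20.3 CPM. Depleted replicates 1 to 4 had 0.236, 2.17, 3.44 and 69.5 CPM. Depleted replicates 1 to 3 lay below every control, and replicate 4 lay above control replicate 6, so the groups overlapped. Over all libraries the log2 fold change was -3.00 ± 1.26 (SE, edgeR adjusted p = 0.0872). In females alone it was -2.58 (edgeR adjusted p = 0.312). Without depleted replicate 4 it was -5.78 (edgeR adjusted p = 0.00182), and without control replicate 6 and hepatectomised replicate 2 it was -3.03 (edgeR adjusted p = 0.114). Without all 3 of these libraries it was -6.11 (edgeR adjusted p = 0.000304). On all 13 libraries limma-voom gave -5.15 (limma adjusted p = 0.00601), and DESeq2 gave -3.00 with no adjusted p. Depleted replicate 4 also held 74.9 CPM of summed stellate genes against 15.6 to 19.2 CPM in the other 3, and 73 counts of 4 Y-linked genes although labelled female, against 0 and 1 in the other depleted females and 7741 in the depleted male. The part of either in its Clec4f level was not tested.

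**Figure D2:**
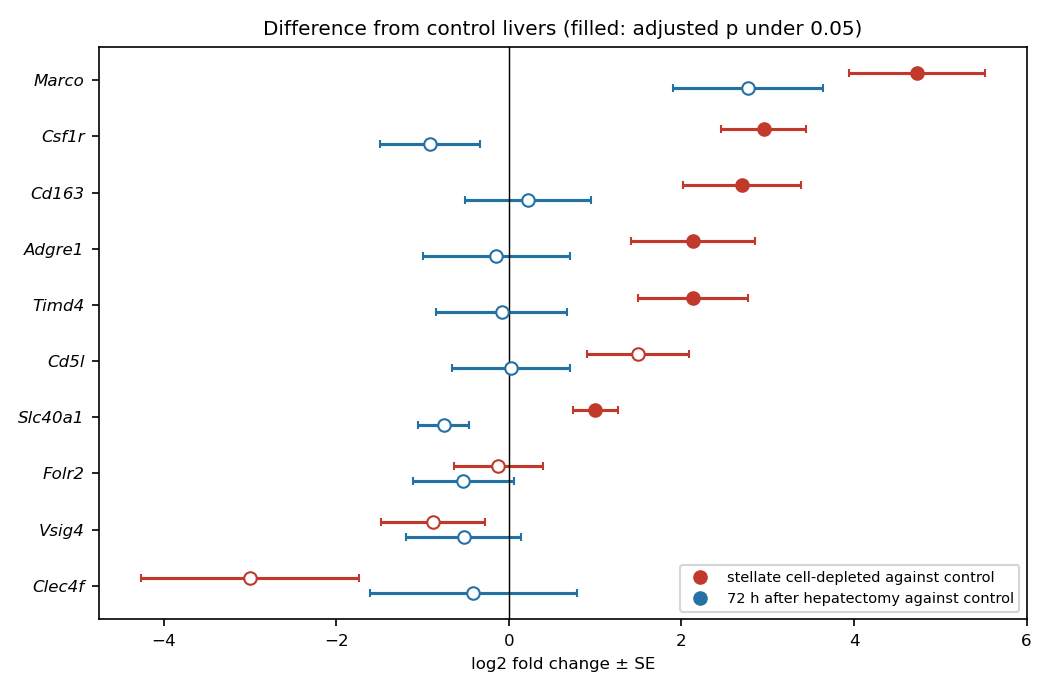
Log2 fold change of each gene against the 6 controls, with bars of 1 SE, in depleted (red) and hepatectomised (blue) livers; filled points had an adjusted p under 0.05 by edgeR. Marco, Csf1r, Cd163, Adgre1, Timd4 and Slc40a1 are filled for depleted livers, at 1.00 to 4.73, and no gene is filled for hepatectomised livers.

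Compared per kilobase of gene length, the order of the levels changed. In controls Cd5l led with a mean of 63.1 CPM per kb, followed by Clec4f at 45.1, Vsig4 at 23.7, Slc40a1 at 21.7, Csf1r at 18.6 and Folr2 at 11.01. Adgre1 at 6.72, Marco at 5.93, Timd4 at 5.11 and Cd163 at 1.75 CPM per kb came last. Within each liver Cd5l was above Clec4f, and Clec4f above Vsig4, in 6 of 6 controls. Vsig4 was above Slc40a1 in 4 of 6, Adgre1 above Marco in 4 of 6 and Marco above Timd4 in 4 of 6, so the order of these neighbours was not the same in every liver. In depleted livers Cd5l (182), Marco (154) and Csf1r (145 CPM per kb) came first, with Marco above Csf1r in 2 of 4 livers. Clec4f (7.62 ± 13.7, SD, n = 4) came last. That Clec4f mean rests on replicate 4, at 28.1 CPM per kb against 0.0953, 0.879 and 1.39 in replicates 1 to 3. In replicate 4 Clec4f was not the last, being above Vsig4 at 19.6, Folr2 at 15.15 and Cd163 at 3.01 CPM per kb.

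Set against Adgre1 in the same liver, which removes any factor common to both genes, the 10 genes fell into different patterns. The Timd4 to Adgre1 difference in log2 CPM was -1.39 to -0.21 in controls and -1.14 to -0.62 in depleted livers, inside the control range. The upper end of that range was control replicate 6. Over controls 1 to 5 it reached -0.71, and depleted replicate 4, at -0.62, lay above it. Marco stood at -1.49 to -0.27 in controls and at 1.40 to 2.10 in depleted livers, with no overlap. Vsig4 went the other way, from 0.53 to 1.82 in controls and from -2.79 to -1.74 in depleted livers. Folr2 was at -1.12 to 0.70 in controls and at -3.65 to -2.57 in depleted livers, also without overlap. Slc40a1 was at 2.81 to 6.01 in controls and 1.56 to 2.41 in depleted livers. Cd163 overlapped between the groups. Cd5l was at 1.54, 1.60 and 1.65 in depleted replicates 1 to 3, below every control (2.33 to 3.55), and overlapped with controls through replicate 4 alone, at 2.66. Csf1r was at 1.37 to 3.47 in controls and 2.60 to 3.23 in depleted livers. Clec4f was furthest apart, at 2.11 to 3.51 in controls and -8.33, -5.10, -5.10 and -0.48 in depleted replicates 1 to 4. Control replicate 6 set the upper end of several control ranges. Over controls 1 to 5 Vsig4 reached 0.77, Folr2 -0.76 and Slc40a1 3.20. Depleted livers lay below the lowest control for these 3 genes, so leaving out the highest control could not bring an overlap. Set against Csf1r instead, Slc40a1 overlapped, as depleted livers reached -0.45 and control replicate 4 was at -0.47. Timd4 over Csf1r was -4.00 to -3.72 in depleted livers, below 5 of the 6 controls (-3.67 to -2.19) and above control replicate 4 (-4.67). Clec4f, Vsig4 and Folr2 were lower, and Marco higher, than in every control against either gene. These differences are descriptions and were not tested.

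**Figure D3:**
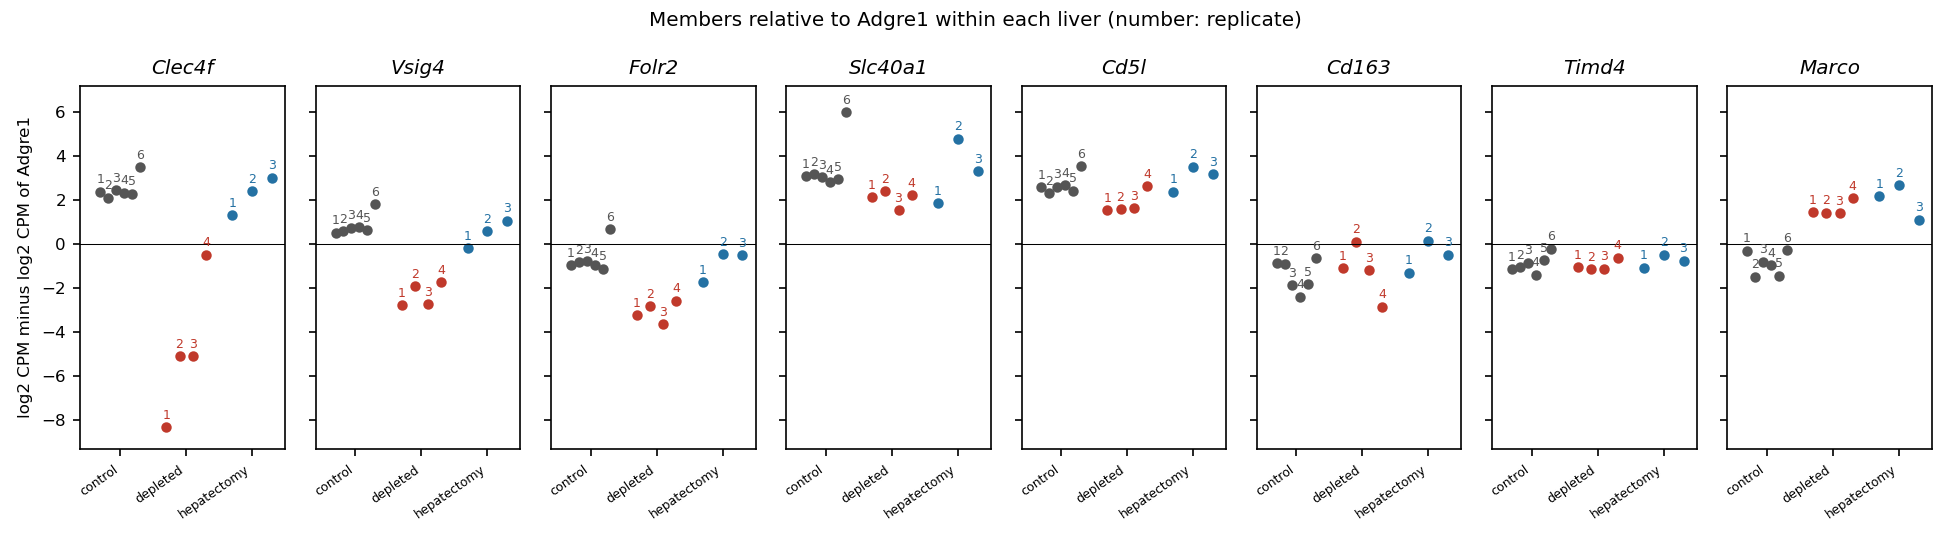
Difference in log2 CPM between 8 genes and Adgre1 within each liver, numbered by replicate. Timd4 in depleted livers lies inside the control range, but depleted replicate 4 (-0.62) is above every control except replicate 6 (-0.21). Marco is higher in all 4 depleted and all 3 hepatectomised livers than in controls. Clec4f, Vsig4, Folr2 and Slc40a1 are lower in all 4 depleted livers than in all controls.

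Across the 6 controls all 45 pairs of genes had a positive Pearson r of log2 CPM, from 0.48 to 1.00 with a median of 0.91. This rests on control replicate 6, the lowest control for all 10 genes. Over controls 1 to 5 the median was 0.47 and 13 of the 45 pairs were negative, the lowest being Cd163 with Csf1r at -0.93. Over all 13 libraries Clec4f had a negative r with 7 of the other 9 genes, the lowest being -0.49 with Cd163, whereas all 36 pairs without Clec4f were positive. The points share libraries and depth, and no test was made.

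The genes most like Clec4f across the 13 libraries were Gucy1b1 (r = 0.93), Postn (0.92), Gucy1a1 (0.92), Lamb1 (0.92) and Igfbp3 (0.91). They encode the subunits of soluble guanylate cyclase, the matrix protein periostin, a laminin chain and an insulin-like growth factor carrier. They were chosen for likeness over these same libraries, so they share the pattern of Clec4f by choice, and the following values are a description. All 5 were lower in depleted livers (log2 fold changes of -3.86, -4.71, -4.29, -3.98 and -6.63), and all 5 were highest in replicate 4 among the depleted livers. The genes most like Csf1r were Prkd2 (r = 0.98), Tor4a, Tfec, Tmem229b and Ppp1r9b (each 0.97), likewise chosen and all higher in depleted livers. With Tfec, a factor of the MITF family in macrophages, the mean went from 1.83 CPM in controls to 12.1 CPM in depleted livers.

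Of 10 transcription factors of Kupffer cells, 4 rose and 0 fell in depleted livers, at a list median of 0.59. Spic, whose product drives iron recycling in macrophages, had 0.630 to 2.44 CPM in controls and 24.2, 18.0, 19.9 and 32.3 CPM in depleted replicates 1 to 4. The groups were far apart, and Spic rose by 3.63 ± 0.58 (log2, SE, edgeR adjusted p = 0.000524). Irf8, a factor of monocyte and macrophage development, rose by 3.52 ± 0.33 (log2, SE). Spi1, which encodes PU.1, rose by 2.56 ± 0.46, from 1.29 to 6.61 CPM in controls to 22.2, 20.6, 35.3 and 43.6 CPM. Nr1h3, which encodes LXRα and is also made by hepatocytes, had 95.5 ± 8.88 CPM (SD, n = 6) in controls and 83.6 ± 20.3 CPM (SD, n = 4) in depleted livers. Id3 was at 27.7 ± 4.05 and 19.9 ± 8.87 CPM. Neither passed, at -0.17 ± 0.17 and -0.43 ± 0.35 (log2, SE), and Id1 (-0.23), Zeb2 (0.70), Maf (0.48) and Rbpj (0.26) did not pass either.

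A list of 10 niche genes held 9 signals and Csf2rb, a receptor chain. Of these 10, 9 could be tested, of which 3 rose (the signals Csf1 and Tgfb1, and Csf2rb) and 3 fell. Bmp10 had 0.180 to 2.20 CPM in controls and 0 counts in all 4 depleted livers, at least 84.0-fold lower when 3 counts over the depleted group are taken as the limit. Gdf2, which encodes BMP9, had 11.1 to 32.8 CPM in controls and 0.107, 0.336, 0.0175 and 3.39 CPM in depleted replicates 1 to 4. No depleted liver reached the lowest control, and Gdf2 fell by 5.12 on the log2 scale (± 0.92, SE, edgeR adjusted p = 0.00114). Il34, a ligand of the receptor encoded by Csf1r, was low throughout, with 0.660 to 1.88 CPM in controls and 0.0857, 0.0224, 0.192 and 0.557 CPM in depleted livers. The difference was -2.89 ± 0.62 (log2, SE, edgeR adjusted p = 0.00327). Depleted replicate 4 was the highest depleted liver for Gdf2, Il34 and Clec4f, and also for genes that rose, such as Csf1, Spic and Spi1. Without that library Gdf2 changed by -7.54 and Il34 by -3.77 (log2).

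The other ligand of that receptor, Csf1, moved the opposite way, from 6.66 to 13.1 CPM in controls to 25.0, 24.8, 18.0 and 31.1 CPM in depleted livers, a log2 rise of 1.05 ± 0.20 (SE, edgeR adjusted p = 0.00142). Tgfb1 rose by 1.72 ± 0.35 and Csf2rb, a chain of the receptor for GM-CSF, by 2.45 ± 0.23 (log2, SE). The Notch ligands Dll1 (-0.06 ± 0.23) and Dll4 (0.34 ± 0.46) and Tgfb2 (-0.75 ± 0.44) did not pass, and Csf2 did not pass the low-count filter. The sign of Dll1 turned with the scaling to library size alone.

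**Figure D4:**
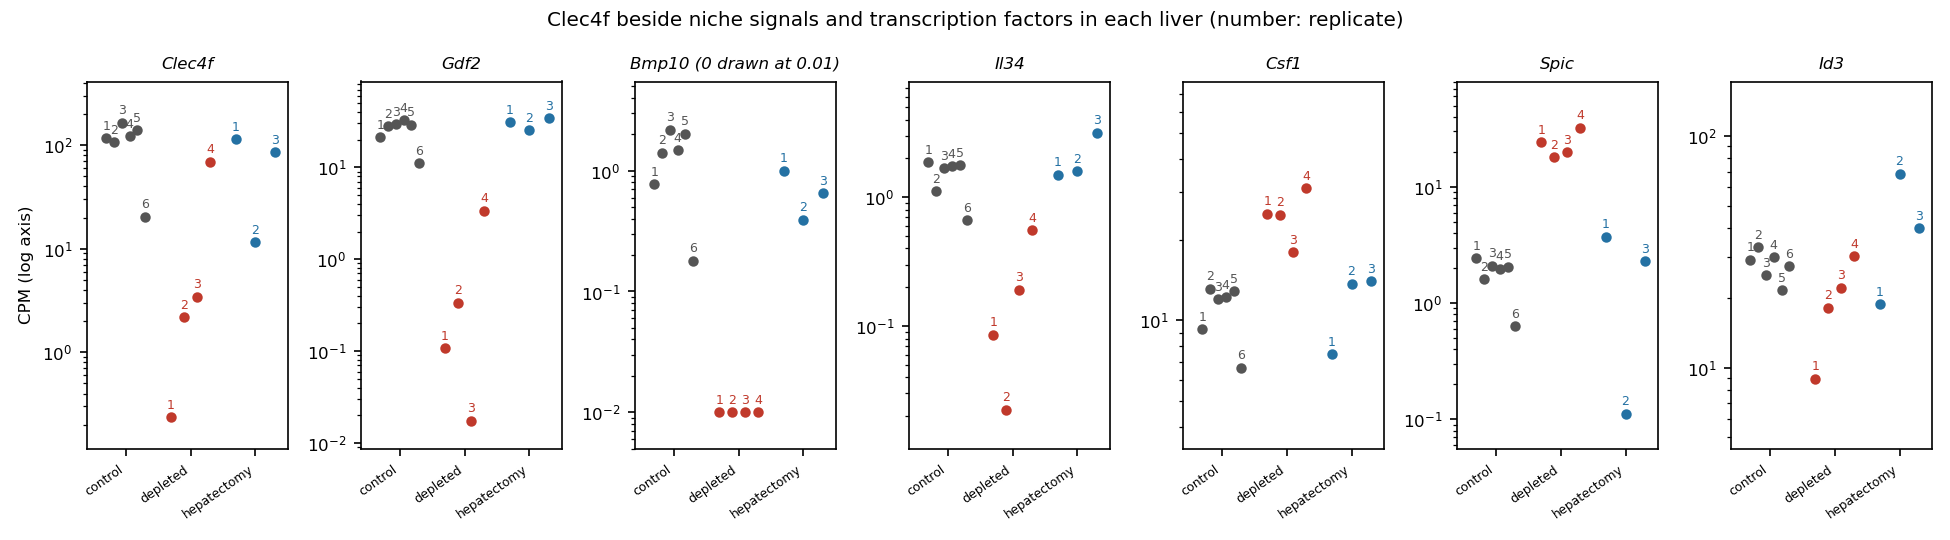
Clec4f beside niche signals (Gdf2, Bmp10, Il34, Csf1) and transcription factors (Spic, Id3) in every liver, in CPM on log axes, numbered by replicate; Bmp10 at 0 counts is drawn at 0.01. Gdf2, Bmp10 and Il34 are lower in all 4 depleted livers than in all controls, Csf1 and Spic are higher in all 4, and Id3 overlaps.

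Of 14 niche receptors and relays, 3 rose and 3 fell, counts near the 18.9% and 15% of all genes called in each direction. Csf2ra, the other chain of the GM-CSF receptor, rose by 2.95 ± 0.31 and Acvrl1, which encodes the receptor ALK1 for BMP9 and BMP10, by 2.72 ± 0.34 (log2, SE). Smad6, an inhibitory SMAD that these proteins induce, fell by 1.52 on the log2 scale and Rxra, which pairs with LXRα, by 0.47. All 4 passed edgeR's test.

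Among 14 other genes of Kupffer cells, 10 rose and 2 fell, at a median log2 fold change of 1.89. C1qa, a chain of complement C1q, went from 12.1 to 68.7 CPM in controls to a mean of 296 ± 111 CPM (SD, n = 4), a log2 rise of 2.64 ± 0.50 (SE), and Il18bp, which encodes the binding protein of IL-18, rose by 2.90 ± 0.37. The falls were Cd207 and Hpgd. Cd207, which encodes langerin, had 1.83 to 8.35 CPM in controls and 0.107, 0.179, 0.402 and 1.20 CPM in depleted replicates 1 to 4, a difference of -2.98 ± 0.80 (log2, SE, edgeR adjusted p = 0.0124). As with Clec4f, replicate 4 was the highest of the depleted livers. Hpgd, a prostaglandin-degrading enzyme, fell by 0.77 on the log2 scale.

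Haem and iron genes that work beside Cd163 and Slc40a1 numbered 15, of which 8 rose and 0 fell. Slc11a1, a metal transporter of the phagosome, rose by 3.16 ± 0.47 and Hp, which encodes the haptoglobin bound by CD163 and is made in hepatocytes, by 2.33 ± 0.14 (log2, SE). Of 18 genes for the uptake of dying or complement-coated cells, 10 rose and 0 fell, led by the Fc receptor gene Fcgr4 at 4.52 ± 0.62 and the complement receptor chain Itgax at 3.74 ± 0.57.

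Markers of other cells were measured in the same livers. All 10 general macrophage genes rose, with a summed level of 874 to 1854 CPM in depleted livers against 42.5 to 255 CPM in controls, led by Cd14 (3.21 ± 0.42) and Ptprc (3.21 ± 0.40, log2, SE). Of 12 genes of monocytes and monocyte-derived macrophages, 7 rose, led by Chil3 (9.82 ± 0.54) and Clec4e (6.33 ± 0.75). The sum over the 12 was 315 to 526 CPM against 87.5 to 159 CPM. All 9 neutrophil genes that could be tested rose, and the sum over 10 was 194 to 354 CPM against 0.600 to 2.37 CPM, with Ly6g at 0 in every control. Of 7 peritoneal macrophage genes, 2 rose (Selp and Prg4), at overlapping sums of 1367 to 2501 CPM and 1319 to 2200 CPM. In controls these sums exceeded those of the general macrophage genes, and the share from macrophages was not tested. Of 10 sinusoidal endothelial genes, 2 rose (Pecam1 and Dnase1l3), near the 18.9% of all genes called higher, and the sums overlapped (471 to 737 CPM against 124 to 599 CPM). Of 8 hepatocyte genes, 2 fell (Cyp2e1 and Ass1), against 15% of all genes, and the sums overlapped. The part of these cells in the levels of Marco, Csf1r, Adgre1 and the other called genes was not tested.

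The second comparison set hepatectomised livers, at 72 h, beside the 6 controls already used, so both comparisons share those libraries. None of the 10 genes passed in either direction by edgeR, whereas 8.42% of all genes were called (6.06% higher, 2.36% lower). At an unadjusted p under 0.05 there were 2, Marco and Slc40a1, and DESeq2 called 1, Marco. The CPM ranges overlapped for all 10, against 13.7% of all genes without overlap, and the median log2 fold change was -0.28. The livers of this group differed widely among themselves, with replicate 1 the highest and replicate 2 the lowest for all 10 genes.

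Marco had 212, 14.3 and 22.7 CPM in hepatectomised replicates 1 to 3, against a control maximum of 18.2 CPM. Replicates 1 and 3 were above all controls and replicate 2 within their range. The log2 fold change was 2.77 ± 0.87 (SE, edgeR adjusted p = 0.0709) and rested on replicate 1, since it was 0.68 without it and passed only in the fit without replicate 3 among those that left out 1 library. DESeq2 gave an adjusted p of 0.0146, and edgeR without the sex term 0.0371. Within each liver, however, the Marco to Adgre1 difference in log2 CPM was 1.11 to 2.70, against -1.49 to -0.27 in controls, so these ranges did not overlap.

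Slc40a1 had 170, 61.7 and 106 CPM, differing from controls by -0.75 ± 0.29 (log2, SE, edgeR adjusted p = 0.138). It was -1.25 without hepatectomised replicate 1 (edgeR adjusted p = 0.0162) and -0.97 with scaling to library size alone (edgeR adjusted p = 0.0454). Csf1r had 63.1, 21.6 and 34.3 CPM (-0.91 ± 0.58). Clec4f had 114, 11.6 and 85.7 CPM, against a control median of 119 CPM. Replicate 1 was among the controls, replicate 3 was below 5 of the 6 and replicate 2 was below all 6 (-0.41 ± 1.20). Timd4 had 22.0, 1.54 and 6.21 CPM, Cd5l 241, 25.4 and 95.7 CPM, Adgre1 46.2, 2.16 and 10.5 CPM, and Cd163 18.9, 2.41 and 7.51 CPM. In each of these 4 genes replicate 1 exceeded every control and replicate 2 was below 5 of the 6. Vsig4 had 41.0, 3.28 and 22.0 CPM and Folr2 14.0, 1.57 and 7.46 CPM, with replicate 2 below every control. Log2 fold changes of these 6 genes lay between -0.53 and 0.22 with SEs of 0.58 to 0.85.

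In the other lists the calls were uneven. None of the 10 transcription factors, the 14 other Kupffer cell genes and the 9 tested niche genes passed edgeR's test. Gdf2 had 31.1, 25.5 and 34.3 CPM and Il34 1.50, 1.60 and 3.17 CPM, all above the lowest control, and Bmp10 had 0.999, 0.393 and 0.648 CPM. Of the niche receptors and relays, 1 of 14 fell (Smad6, by 0.96 on the log2 scale). Haem and iron genes included 3 rises, led by Hp (2.64 ± 0.14) and Hpx (2.36 ± 0.22), the hepatocyte-made binder of haem, and 1 fall (Nfe2l2). The uptake list had 3 rises of 18, led by Gas6, a bridge between dying cells and the receptors MERTK and AXL (1.63 ± 0.44), and C3 (1.14 ± 0.26, log2, SE). General macrophage genes summed to 74.8 to 323 CPM, of which Cd14 alone passed (1 of 10). Genes of monocytes and monocyte-derived macrophages summed to 188 to 210 CPM (4 of 12 higher). Neutrophil genes summed to 29.4 to 96.3 CPM (8 of 9 higher). Of 7 peritoneal macrophage genes, 3 rose, led by Serpinb2 (4.10 ± 0.84) and Prg4 (2.29 ± 0.18, log2, SE), and their sum was 2240 to 2964 CPM, above every control (1319 to 2200 CPM). In hepatectomised replicate 2 this sum was 2964 CPM, whereas the general macrophage genes summed to 74.8 CPM. The share of the sum that came from macrophages was not tested, nor was the part of peritoneal macrophages in the Marco level. The summed stellate level was 355 to 671 CPM, within the control range, and 0 of 12 passed.

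A direct comparison of depleted with hepatectomised livers called 2 of the 10 genes higher and 0 lower, against 23.4% of all genes called in either direction, 13.3% higher and 10.1% lower. Csf1r was higher by 3.87 ± 0.69 (log2, SE, edgeR adjusted p = 0.00211) and Slc40a1 by 1.76 ± 0.34 (edgeR adjusted p = 0.00286). Both held in all 13 fits that left out 1 library. The ranges did not overlap for 4 genes (Csf1r, Slc40a1, Timd4 and Adgre1), against 34% of all genes. Marco did not pass, at 1.95 ± 1.00, nor did Cd163 (2.48 ± 0.88, edgeR adjusted p = 0.0621), Timd4 (2.22 ± 0.86, edgeR adjusted p = 0.0836), Adgre1 (2.28 ± 0.97) or Cd5l (1.47 ± 0.78). Clec4f was at -2.59 ± 1.43, Vsig4 at -0.35 ± 0.72 and Folr2 at 0.41 ± 0.65. The count of higher genes was 7 without hepatectomised replicate 1 and 5 without control replicate 6, and Clec4f was lower without depleted replicate 4 (-5.17, edgeR adjusted p = 0.00539).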

How the data were processed

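Whole-liver RNA was measured in 13 libraries made with a stranded mRNA kit, per the labels' protocols. The authors deposited 1 table of raw read counts per gene. The submitters' processing notes name STAR 2.7.1a, SAMtools 1.15.1, featureCounts 1.6.4 and mm10, and give no strand or multi-mapping setting, so reads of overlapping, antisense or near-identical genes may be shared. Symbols and GRCm38 positions came from GENCODE (21741 of 22048 IDs matched), and 99.94% of matched IDs overlapped the same gene. Upstream sequences are RefSeq's.

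Counts were scaled by TMM, filtered with filterByExpr and tested with edgeR 4.0.16 in R 4.3.3 (glmQLFit, robust; glmQLFTest; two-sided) on group and sex over all 13 libraries, with Benjamini-Hochberg adjustment at 0.05. The procedure was tested on simulated data. Log2 CPM used a prior count of 2. Alternatives were DESeq2 1.42.0, limma-voom (limma 3.58.1), other scalings, filters and covariates, a replicate block and each library left out. Within groups, no pair of libraries agreed within sampling noise. Limits on counts of 0 cover counting error only.

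The genes and lists were chosen with earlier results of these data known. All 10 genes, the transcription factors and niche signals were named (1 factor is not reported here), with the 2 largest rises and falls of each other list and the 5 genes most like Clec4f and Csf1r. Leaving out control replicate 6 with hepatectomised replicate 2, and also depleted replicate 4, was chosen after seeing the data, as were correlations and ratios without control replicate 6 and the Y-linked genes.

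Replicate numbers are shared across groups. Deviations from group and sex means correlated between same-numbered libraries at -0.098 to 0.416, -0.191 to 0.084 and 0.041 to 0.272 across genes in the 3 comparisons, so the numbers were not taken to pair the samples.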

Additional observations from a re-analysis of the deposited data

Results flagged for a closer look

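A library was marked when its gap to the nearest other, divided by the range of its group, passed Dixon's critical value. The test was run on 40 sets of values, from control and depleted livers, and 11 passed, where independent sets would give 2 by chance. Each gene and group was taken on both the CPM and the log2 scale, and the genes share libraries. The sets are thus not independent, and 11 against 2 does not measure an excess. Control replicate 6 was the lowest control on the log2 scale for Clec4f (20.35 CPM), Timd4 (1.50 CPM), Vsig4 (6.272 CPM), Cd5l (20.95 CPM), Marco (1.44 CPM), Folr2 (2.851 CPM) and Adgre1 (1.74 CPM), and for Adgre1 on the CPM scale too (1.74 CPM). Its summed endothelial level, 124 CPM, was also the lowest among controls. Depleted replicate 4 was marked on the CPM scale only, as the highest depleted liver for Clec4f (69.46 CPM, gap 0.954 of the range) and Folr2 (16.35 CPM, gap 0.838). Control replicate 4 was also marked on the CPM scale only, as the highest control for Csf1r (233.3 CPM, gap 0.691). The part of tissue composition in these values was not tested.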

How the results depend on the processing

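In depleted against control livers, 4692 genes were called, with 2695 in females only and 2960 to 4928 with each library left out (lowest without depleted replicate 3), and 5155 without the 3 libraries that stood apart. Of the 10 genes, 6 were higher, with 3 under the replicate block (Marco, Cd163 and Csf1r) and 4 to 7 with each library left out. The count lower was 0, with 1 in females only (Vsig4), 1 by limma-voom (Clec4f), 0 to 1 with each library left out, 1 without control replicate 6 and hepatectomised replicate 2, and 2 when depleted replicate 4 was also left out. With the block, Slc40a1 was at 0.92 (edgeR adjusted p = 0.0526) and Timd4 at 2.04 (edgeR adjusted p = 0.0505). Same-numbered libraries correlated best with their own number in 3 of 10, 0 of 9 and 4 of 7 cases in the 3 comparisons.

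After hepatectomy 1164 genes were called, with 632 under the replicate block, 1939 by DESeq2, 2192 with library size alone, 412 and 751 without the 2 and the 3 libraries that stood apart, and 483 to 1458 with each library left out. Of the 10 genes, 1 was higher without the sex term and by DESeq2 (Marco), 1 was lower with library size alone (Slc40a1), and 0 to 1 in either direction with each library left out. Library size alone moved the median of all genes to -0.24 and split the calls into 626 higher and 1566 lower, against 838 and 326. In the direct comparison, 3236 genes were called, with 2105 in a fit of those 2 groups and 1709 to 3850 with each library left out, and 3853 without the 3 libraries. The 2 higher genes became 5 under the block, 4 by DESeq2, 5 by limma-voom, 4 with library size alone, 5 and 5 without the 2 and the 3 libraries, and 2 to 7 with each left out. The 0 lower became 1 by limma-voom, 0 to 1 with each left out and 2 without the 3 libraries. There, scaling to library size alone split the calls into 3102 higher and 610 lower, against 1837 and 1399, and in depleted livers into 2884 and 1471, against 2614 and 2078.

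Signs turned for genes not called over all libraries. Among them, Vsig4 was called lower in the direct comparison without the 3 libraries (edgeR adjusted p = 0.0499). In depleted livers, Folr2 ran from -0.28 to 0.014 and Id1 from -0.70 to 0.071 with each library left out, and Folr2 was -0.46 without the 3 libraries. Dll1 was 0.11 without the sex term, 0.026 under the block, 0.155 in females only, 0.044 with library size alone and -0.22 to 0.052 with each left out. After hepatectomy, with each left out, Clec4f ran from -1.69 to 0.044, Timd4 from -1.62 to 0.38, Cd5l from -1.21 to 0.46, Adgre1 from -1.90 to 0.35 and Cd163 from -0.67 to 0.67. Timd4 was 0.0088 in a fit of the 2 groups and 0.0081 without the 2 libraries. Cd5l was -0.090 without the sex term, -0.51 under the block, -0.23 by limma-voom and -0.21 with library size alone. Cd163 was -0.45 under the block and -0.016 with library size alone. In the direct comparison Vsig4 was 0.055 by limma-voom, -0.81 to 0.76 with each left out and -0.87 without the 3 libraries, and Folr2 was -0.01 to 1.37 with each left out and -0.081 without the 3 libraries. The causes were not tested. The common biological coefficient of variation was 31.4%.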
